A study of Mus musculus with 24 samples.

Results

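The retinas of rd10 mice on a 3-drug diet (rd10 TMB, n = 8) were compared with those of wild-type mice (WT, n = 4) to describe which differences from a healthy retina were present under treatment. These are 12 of the 24 bulk RNA libraries of the series, chosen by their labels, with 1 library from each mouse, called a retina below. All genes of the nuclear count table entered the comparison. The rd10 TMB mice carry the rd10 missense allele of Pde6b, in every cell, on the C57BL/6J background. They ate chow with tamsulosin, metoprolol and bromocriptine from postnatal day 28. The WT mice were C57BL/6J mice on the base diet. These rd10 mice, and the rd10 mice on base diet whose values are given beside them (rd10 vehicle, n = 8), were reared in darkness. They lived in cyclic light from day 29 to day 36. The same days in cyclic light are recorded for the WT mice, but the study's methods do not describe their earlier rearing. All 3 groups were collected on day 37. The rd10 TMB retinas came from 4 females and 4 males and the WT retinas from 2 females and 2 males. No WT mouse received the drugs, and only rd10 mice saw the flashes of an electroretinogram on day 36. Genotype, diet, flashes and any difference in early rearing thus cannot be told apart in the comparison with WT.

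Rods capture single photons and signal through transducin and the phosphodiesterase that Pde6b helps to form, and the loss of that enzyme's activity leads to rod death and later to loss of cones. Müller glia, the radial glia of the retina, respond to dying photoreceptors by raising filament and cytokine genes. Microglia, the resident phagocytes, move into the photoreceptor layer and take up debris. Tamsulosin blocks alpha-1 adrenergic receptors, metoprolol blocks beta-1 adrenergic receptors, and bromocriptine activates dopamine receptors of the D2 family.

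Nuclear counts totalled 59309641 to 86471014 per library over the 12 libraries, and values are given as CPM, counts per 1000000 nuclear counts of the library after scaling by TMM, a factor that offsets differences in library composition. Of 31 markers of 9 retinal cell classes 30 were analysed here, and each was above 0 in all 12 libraries, the lowest value being 1.09 CPM. Some libraries stood apart. The melanocyte gene Dct had 613 CPM in rd10 TMB retina 3 and 35.0 to 162 CPM in the other 7, against 201, 15.2, 849 and 8.35 CPM in WT retinas 1 to 4, so that it was highest in WT retina 3. The rd10 TMB retinas 2, 3 and 4 had high pigment epithelium genes, retina 4 had high lens genes, and retinas 1 and 2 had high immediate early genes. Results that moved strongly without these libraries are also given without them.

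Of 20848 genes tested, 52.2% passed an adjusted p of 0.05 (edgeR's quasi-likelihood test with Benjamini-Hochberg adjustment, used throughout), 27.2% as higher and 24.9% as lower in treated than in WT retinas. Among the called genes 2537 were at least 1.5-fold higher and 1766 at least 1.5-fold lower. A stricter test, for changes above 1.5-fold, called 884 genes higher (4.24%) and 772 lower (3.7%), 7.94% in all. On simulated counts of 20567 genes, with 50 changed at each fold size, this stricter test recovered 26% of 2-fold and 72% of 3-fold changes. Far fewer genes changed there than were called here, and the adjustment depends on that number. These shares therefore do not give the recovery in these data. Among the genes past the first test, 1153 were at least 2-fold higher and 768 at least 2-fold lower, 312 were at least 4-fold higher and 57 at least 4-fold lower, and 78 were at least 8-fold higher and 13 at least 8-fold lower. In 32.6% of the genes the values of the 8 rd10 TMB and the 4 WT retinas did not overlap, with rd10 TMB higher in 17.5% and lower in 15.1%. Over all genes the median log2 fold change was 0.00 with TMM and 0.17 without, and without TMM the changes above 1.5-fold were 1588 higher and 562 lower. All fold changes below are relative to the TMM scaling.

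**Figure D1:**
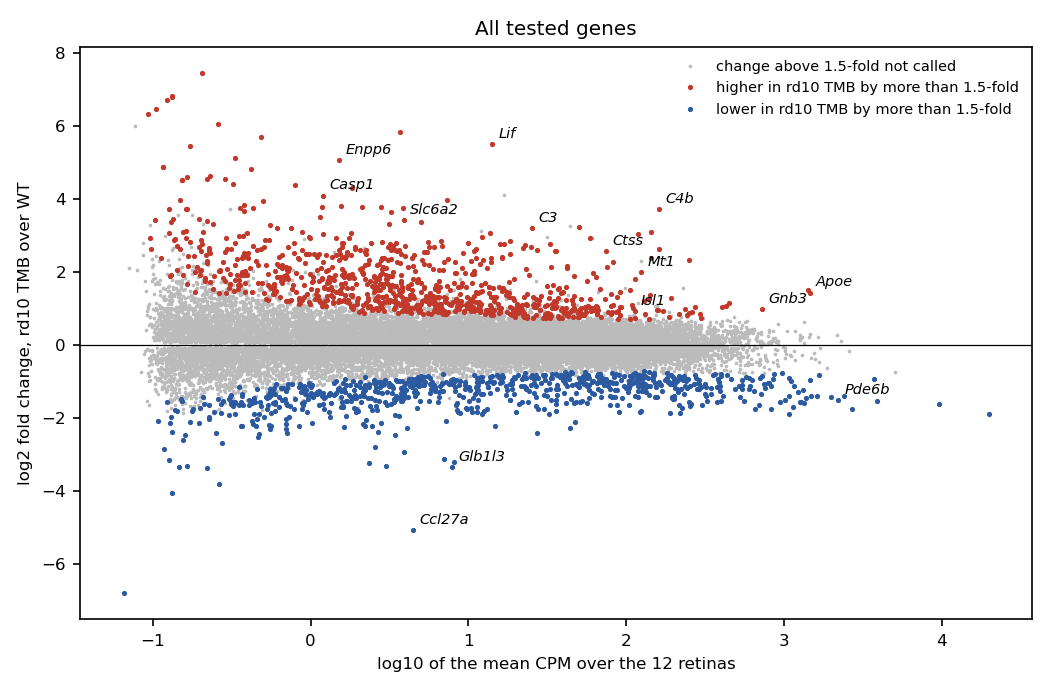
Log2 fold change of rd10 TMB over WT retinas for each of the 20848 tested genes against the log10 of its mean CPM over the 12 retinas. Coloured points are the 884 genes called higher and the 772 called lower by more than 1.5-fold, and the higher side has more genes at large changes (78 against 13 at 8-fold or more).

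Rd10 TMB retinas were compared with rd10 vehicle retinas to place each difference from WT beside the effect of the diet. By the same test rd10 TMB retinas were higher in 3.37% and lower in 2.32% of 20251 genes, 5.69% in all. These were 683 and 469 genes. The split turned to 656 higher and 1041 lower without TMM. Rd10 vehicle retinas differed from WT in 61.8% of 20763 genes. No gene passed the test for changes above 1.5-fold between the diets by edgeR (0 of 20251, 137 at an unadjusted p under 0.05, no other tool run). The number of calls between the diets depended on single retinas. It was 1152 with all 16 retinas, 2 without vehicle retina 1, 3 without vehicle retina 5, 119 without TMB retina 5, 220 without TMB retina 4, 372 without vehicle retina 8, 404 without TMB retina 6, 446 without vehicle retina 4, 575 without vehicle retina 6, 634 without TMB retina 2, 652 without TMB retina 7 and 1676 without vehicle retina 2. Where the log2 fold change of a single gene between the diets is given below, its SE is therefore added. List medians between the diets carry no SE. Each adjusted p between the diets applies to the full set of 16 retinas. The comparisons of rd10 TMB and of rd10 vehicle retinas with WT share the 4 WT retinas. Counts of list members against WT are to be read beside the 27.2% higher and 24.9% lower over all genes. Those between the diets are to be read beside 3.37% and 2.32%. Most called genes named from the lists were picked for their large changes, so a lack of overlap with WT follows in part from that choice. It is to be read beside the 32.6% of all genes without overlap.

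Rod genes were far below the WT level in every rd10 TMB retina. Pde6b (GRCm38 chromosome 5, 108388391 to 108432397), the gene with the rd10 allele, had 898, 1337 and 1881 CPM as the lowest, median and highest values in rd10 TMB retinas, against 3894, 4058, 3499.7 and 4136 CPM in the 4 WT retinas. The highest treated retina lay well below the lowest WT retina (log2 fold change -1.52, SE 0.162, adjusted p = 3.00e-06). Gucy2f, a guanylate cyclase that restores cGMP, had 83.8, 117 and 155 CPM, against 414, 453, 357 and 463 CPM in WT retinas (log2 fold change -1.85, SE 0.127, adjusted p = 9.79e-08). The calcium sensor of that cyclase, Guca1b, had 294, 411 and 772 CPM, against 1587, 1552, 1442 and 1653 CPM (log2 fold change -1.76, SE 0.207, adjusted p = 6.95e-06). In each of these genes the 8 treated retinas lay below all WT retinas, and rd10 TMB retinas 1 and 5 were the highest in the rod list as a whole.

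All 22 rod phototransduction genes tested were lower in rd10 TMB retinas than in WT, 21 of them by more than 1.5-fold, with a median log2 fold change of -1.55 beside 0.00 over all genes. The level of the list, the mean log2 CPM of its genes relative to WT, was -1.96 to -1.08 in rd10 TMB retinas, -3.04 to -1.66 in rd10 vehicle retinas and -0.12 to 0.12 in WT retinas. The rd10 TMB and vehicle ranges overlapped, while the gap between the highest rd10 TMB retina (retina 5) and the lowest WT retina was larger than the spread within either group. Against rd10 vehicle retinas 21 of the 22 genes were higher, by a median of 0.71 on the log2 scale, and Pde6b differed by 0.88 (SE 0.216, adjusted p = 0.0302). This count was 0 without vehicle retina 1 or 5, 1 without TMB retina 5, 3 without TMB retina 4, 4 without vehicle retina 4 or 8, 6 without TMB retina 6 and 8 without TMB retina 1 or vehicle retina 6. It was 14 to 22 without any of the others. In bulk retina, fewer rods and less RNA per rod cannot be told apart.

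**Figure D2:**
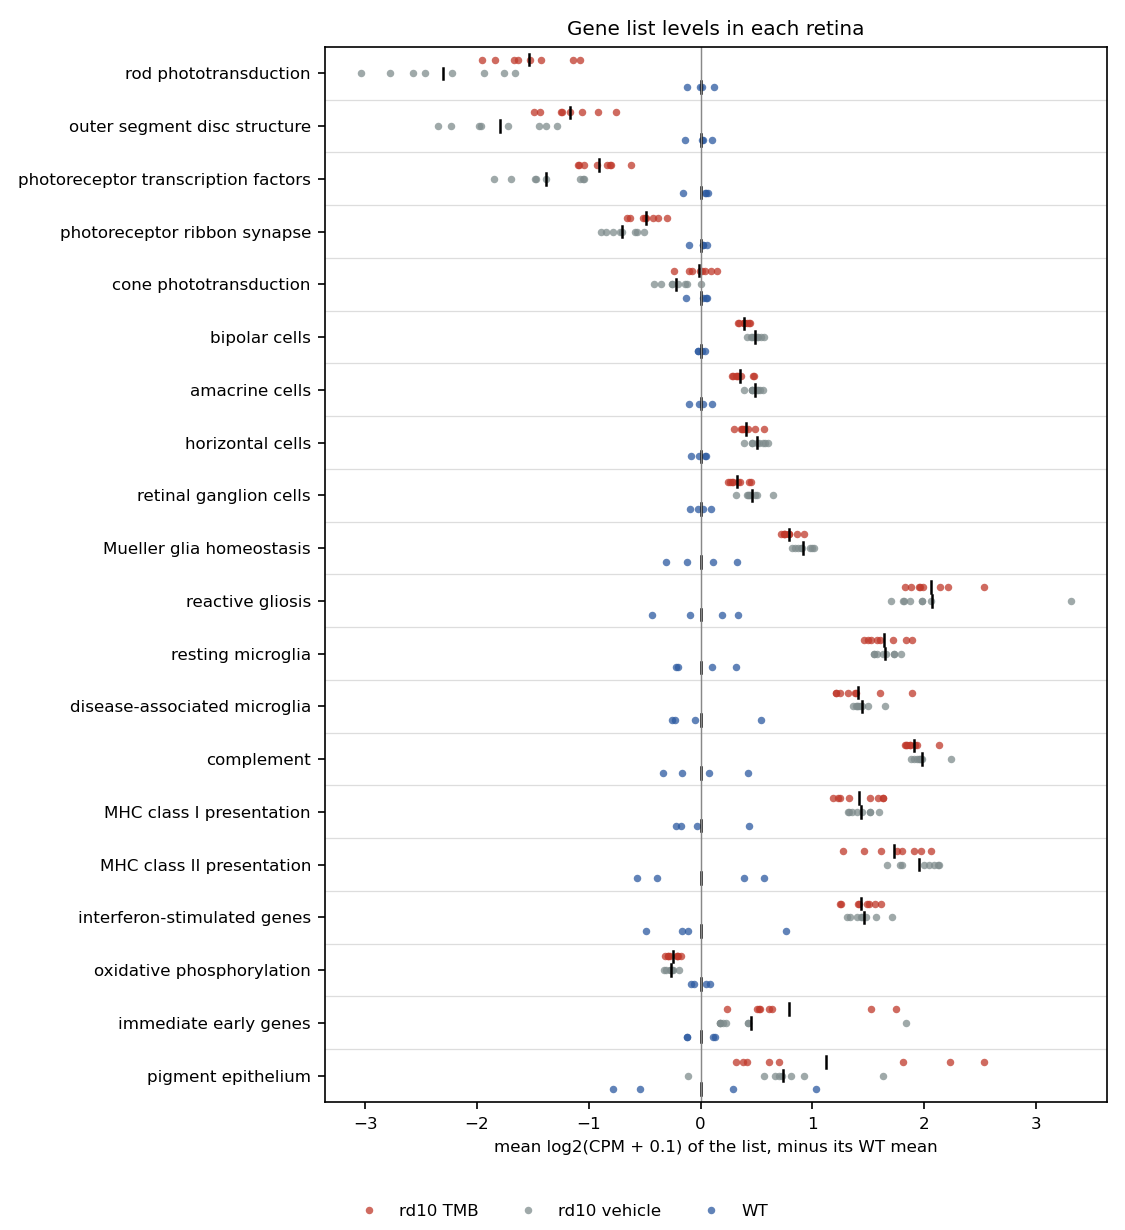
Mean log2(CPM + 0.1) of 20 gene lists in each retina, minus the WT mean of the list, with 1 point per retina and a black bar at the group mean, for rd10 TMB (n = 8), rd10 vehicle (n = 8) and WT (n = 4). The rod list lies between -1.96 and -1.08 in rd10 TMB retinas, and the glial and immune lists lie above WT in both rd10 groups.

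Genes of the outer segment disc were also lower. Of 19 tested, 18 were lower, 14 by more than 1.5-fold, their median log2 fold change being -1.26, and 16 were higher than in rd10 vehicle retinas (median 0.64). That last count was 0 without vehicle retina 1 or 5 or TMB retina 5, 1 to 3 without TMB retina 4 or vehicle retina 8 or 4, 5 to 10 without TMB retina 6, 1, 2 or 7 or vehicle retina 6, and 16 to 19 without any of the others. Prph2, a tetraspanin of the disc rim, had 1066, 1399 and 2114 CPM in rd10 TMB retinas and 5212, 4854, 4906 and 5422 CPM in WT retinas (log2 fold change -1.75, SE 0.147, adjusted p = 4.33e-07). Its partner Rom1 had 548, 718 and 1085 CPM, against 2296, 2149.7, 2218 and 2487 CPM in WT retinas (log2 fold change -1.57, SE 0.152, adjusted p = 1.33e-06), and Fscn2, an actin-bundling protein of photoreceptors, was 3.15-fold lower (SE 0.166 on the log2 scale, adjusted p = 1.70e-06). The groups did not overlap in any of the 3 genes. Pcdh15, a cadherin shared by photoreceptors and hair cells, was the member that did not pass the test, with 274 to 413 CPM in rd10 TMB and 304 to 371 CPM in WT retinas (log2 fold change -0.03, SE 0.106).

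Transcription factors of photoreceptors were lower in 14 of 15 cases, 7 of them by more than 1.5-fold, with a median log2 fold change of -0.78. Nrl (chromosome 14, 55518978 to 55524981), which sets rod fate, had 411, 528 and 835 CPM in rd10 TMB retinas, against 2019.5, 2137, 1886 and 2325 CPM in WT retinas. Samd11, a repressor found in photoreceptors, had 136, 179.8 and 213 CPM, against 578, 621, 469 and 550.0 CPM (log2 fold change -1.63, SE 0.104, adjusted p = 5.48e-08), and Nr2e3, which represses cone genes in rods, was 2.89-fold lower (SE 0.143 on the log2 scale, adjusted p = 9.75e-07). Treated and WT retinas did not overlap in these genes. The exception in direction was Rxrg, a retinoid receptor of cones, at 11.8 to 16.4 CPM in rd10 TMB and 9.11 to 12.2 CPM in WT retinas, which was higher (log2 fold change 0.41, SE 0.104, adjusted p = 0.00389) and whose call ended with males alone (log2 fold change 0.25, adjusted p = 0.205). Against rd10 vehicle retinas 7 of the 15 were higher, or 0 without vehicle retina 1 or 5, 1 to 4 without TMB retina 5, 4 or 6 or vehicle retina 8 or 4, and 5 to 10 without any of the others.

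The promoters of Samd11 and, chosen after its values were seen, Crx, a homeobox activator of rod and cone genes that was 2.17-fold lower, are shown because the TAATCC core that CRX binds recurs in them. TAATCC was searched on both strands from 250 bases before to 50 after each RefSeq start. It was found in 5 of the 15 promoters of these factors (33.3%) and in 7.16% of 27025 promoters of all genes. It was also in 4 of 10 promoters of pigment epithelium genes (40%), and in 27.8% for genes of microglia in degenerating tissue. The share was 22.2% for bipolar, 5% for amacrine and 0% for MHC class I genes. A high share was thus not particular to the photoreceptor factors. Too few rod phototransduction genes (14 of 22) and disc genes (15 of 19) had a promoter in the table for a share to be given. The 250 bases before the start are printed 5′ to 3′ along the gene (GRCm38.p6, sequences from RefSeq), with TAATCC or its reverse complement in capitals. Samd11 is at chr4:156255343-156255592 and Crx at chr7:15879956-15880205, both on the minus strand.
Samd11: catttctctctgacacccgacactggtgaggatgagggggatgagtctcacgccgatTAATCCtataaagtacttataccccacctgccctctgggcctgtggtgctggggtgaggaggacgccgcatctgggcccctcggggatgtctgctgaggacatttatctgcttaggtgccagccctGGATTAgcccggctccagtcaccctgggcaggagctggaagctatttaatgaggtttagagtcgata
Crx: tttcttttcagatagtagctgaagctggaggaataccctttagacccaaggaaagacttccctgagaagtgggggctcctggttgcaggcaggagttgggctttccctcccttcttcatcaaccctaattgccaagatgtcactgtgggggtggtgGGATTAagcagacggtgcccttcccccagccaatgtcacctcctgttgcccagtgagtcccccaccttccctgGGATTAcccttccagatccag
Both matches of Crx are on the reverse strand, the nearer at 21 bases before the start, and those of Samd11 lie at 193 and 67 bases before it. A match of letters is not a measured binding site.

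Cone genes were more often higher than lower. Of 13 tested, 7 were higher and 3 lower, with a median log2 fold change of 0.17 (9 higher and 3 lower without TMM). Gnb3, the beta subunit of cone transducin, had 755, 859 and 1019.6 CPM in rd10 TMB retinas, against 469, 453, 427 and 424 CPM in WT retinas (log2 fold change 0.97, SE 0.0836, adjusted p = 5.12e-07). The cone arrestin Arr3 had 508, 669.6 and 739 CPM, against 424, 479, 365 and 395 CPM (log2 fold change 0.62, SE 0.0958, adjusted p = 7.80e-05), and Pde6c, the cone phosphodiesterase, was 1.48-fold higher (SE 0.0811 on the log2 scale, adjusted p = 3.99e-05). In none of the 3, which were named for the largest increases of the list, did treated and WT retinas overlap. Kcnv2, a potassium channel subunit that rods also express, was the most reduced at 174 to 309 CPM, against 565 to 735 CPM in WT retinas (log2 fold change -1.58, SE 0.126, adjusted p = 3.13e-07). The M-opsin Opn1mw had 184 to 259 CPM in rd10 TMB and 185 to 214 CPM in WT retinas (log2 fold change 0.13, SE 0.0797, adjusted p = 0.187).

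Genes of the photoreceptor synapse were split. Of 19 tested, 13 were lower and 4 higher, with a median log2 fold change of -0.74. Cabp4, a calcium sensor of the presynaptic channel, had 54.5, 73.9 and 103 CPM in rd10 TMB retinas, against 212, 204, 186 and 212 CPM in WT retinas (log2 fold change -1.43, SE 0.127, adjusted p = 6.62e-07). Unc119, a carrier of lipidated transducin, and Cplx4, a complexin of photoreceptor ribbons, were 2.37-fold and 1.92-fold lower (adjusted p = 4.70e-07 and 5.66e-06). Elfn2, an adhesion protein of the cone synapse, was higher, at 124 to 140.3 CPM against 86.9 to 92.8 CPM in WT retinas (log2 fold change 0.55, SE 0.0426, adjusted p = 2.39e-07). Pclo, a scaffold of all ribbon and many conventional synapses, did not pass the test, at 289 to 407 CPM in rd10 TMB and 285 to 402 CPM in WT retinas (log2 fold change 0.03, SE 0.0963).

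Within the visual cycle the enzymes of photoreceptors were lower, with Rdh12 at 146 to 276 CPM in rd10 TMB and 527 to 621 CPM in WT retinas (log2 fold change -1.54, SE 0.147, adjusted p = 1.15e-06) and the retinoid carrier Rbp3 1.91-fold lower (SE 0.107 on the log2 scale). Over the list of 14, 6 genes were higher and 5 lower. Without TMB retinas 2, 3 and 4 the counts were 3 higher and 5 lower. The number higher was also 3 without any 1 of TMB retinas 2, 3 and 4 or WT retinas 1, 2 and 4, and with males alone. It was 3, too, when the only treated retinas were the 3 whose titles carry the prefix RD9 (RD9 retinas). The pigment epithelium enzymes moved with single retinas. Rpe65, the isomerase of that tissue, had 60.3, 70.0 and 83.6 CPM in rd10 TMB retinas 2, 3 and 4 and 7.92 to 17.6 CPM in the other treated retinas, against 9.92, 9.48, 14.8 and 7.25 CPM in WT retinas. Its log2 fold change of 1.75 (adjusted p = 0.0337) became 0.31 without those 3 retinas (adjusted p = 0.313), and Lrat went the same way (0.31, adjusted p = 0.275). In Rpe65 the other 5 treated retinas overlapped the WT range. Of 12 pigment epithelium genes tested 7 were higher and none was lower. The counts were 4 higher and 1 lower without TMB retinas 2, 3 and 4 or without retina 3 alone. They were 4 and 0 without TMB retina 2 or 4, without WT retina 1, 2 or 4 and with RD9 retinas alone, and 2 and 0 with males alone. The 12 genes summed to 247.2 to 1477 CPM in rd10 TMB and 85.2 to 1078 CPM in WT retinas.

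**Figure D3:**
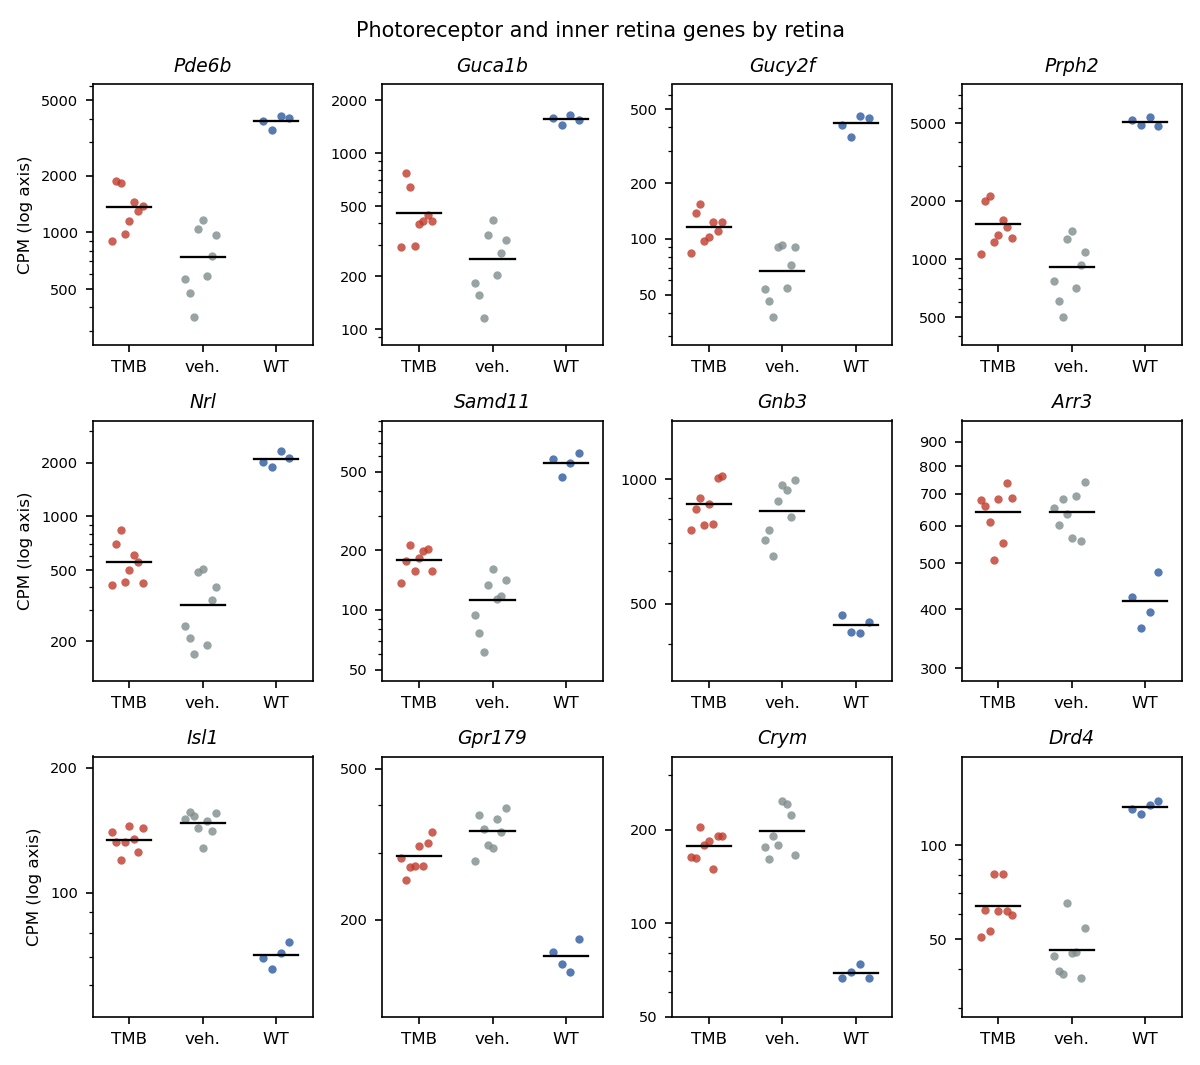
CPM on log axes of 12 genes of photoreceptors and the inner retina, with 1 point per retina and a black bar at the mean, for rd10 TMB (TMB, n = 8), rd10 vehicle (veh., n = 8) and WT (n = 4). Rod genes of rd10 TMB retinas lie below all WT values, for Pde6b at 898 to 1881 CPM, while Gnb3, Arr3, Isl1, Gpr179 and Crym lie above them.

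Most genes of inner retinal neurons had higher CPM than in WT retinas. Of 22 bipolar cell genes 19 were higher and 2 lower (median log2 fold change 0.46), of 22 amacrine genes 17 and 1 (0.41), of 9 horizontal cell genes 6 and 0 (0.57) and of 18 ganglion cell genes 15 and 0 (0.34). With females alone 3 horizontal and 8 ganglion cell genes were higher. Changes above 1.5-fold were called for 5 bipolar genes that were higher and 2 that were lower and for 1 horizontal cell gene. Isl1, a LIM homeobox factor of ON bipolar cells that other inner neurons also express, had 119.6, 134 and 145 CPM in rd10 TMB retinas, against 69.7, 75.9, 65.4 and 71.7 CPM in WT retinas (log2 fold change 0.93, SE 0.0584, adjusted p = 4.86e-08). The treated values were above WT without overlap. Gpr179, an anchor of the ON bipolar cascade, was 1.84-fold higher (SE 0.0777 on the log2 scale), and Onecut2, a factor of horizontal cells, had 13.8 to 17.7 CPM against 7.37 to 8.66 CPM (log2 fold change 0.95, SE 0.0851, adjusted p = 7.01e-07). Tfap2a of amacrine cells and Ebf3 of ganglion cells were 1.42-fold and 1.40-fold higher (adjusted p = 3.91e-06 and 1.13e-05). Calb1, a calcium buffer of horizontal cells, did not pass the test, with 125 to 155 CPM in rd10 TMB and 122 to 137 CPM in WT retinas (log2 fold change 0.07, SE 0.0600). The 2 bipolar list members that were lower were Gnb5, a G protein subunit, and Lrit3, a synaptic membrane protein, at 1.89-fold and 1.77-fold, and both are known from photoreceptors as well. Between the diets, rd10 TMB retinas had 2 bipolar genes higher and 6 lower than rd10 vehicle retinas, and 5 amacrine genes were lower (0 of the 22 bipolar and 1 of the 22 amacrine genes without vehicle retina 1).

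Müller glia genes were higher in 17 of 20 cases, 7 by more than 1.5-fold, and none was lower (median log2 fold change 0.69). Crym, a thyroid hormone binding protein of these glia, had 149, 181 and 204 CPM in rd10 TMB retinas, against 66.4, 66.7, 69.7 and 74.1 CPM in WT retinas (log2 fold change 1.36, SE 0.0793, adjusted p = 3.06e-08). Apoe, a lipid carrier, had 1571, 1809 and 2322 CPM, against 797, 525, 996 and 421 CPM, and Clu, a secreted chaperone, 1576, 1677 and 2493 CPM, against 598, 496, 1019 and 408 CPM. In both the highest WT value was that of WT retina 3, and without it the log2 fold changes of 1.43 and 1.52 were 1.67 and 1.85. Car2, a carbonic anhydrase, did not pass the test, with 556 to 668 CPM in rd10 TMB and 549 to 616 CPM in WT retinas (log2 fold change 0.05, SE 0.0558).

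Reactive gliosis genes formed the list with the largest shift in glia. Of 25 tested 22 were higher, 17 by more than 1.5-fold, their median log2 fold change being 2.38, and the list level was 1.83 to 2.54 in rd10 TMB, 1.70 to 3.32 in rd10 vehicle and -0.43 to 0.34 in WT retinas. Bcl3 (chromosome 7, 19808462 to 19822770), a coregulator of nuclear factor kappa B, had 8.24, 9.94 and 18.1 CPM in rd10 TMB retinas, against 0.860, 0.638, 0.644 and 0.609 CPM in WT retinas (log2 fold change 3.96, SE 0.246, adjusted p = 4.31e-08). Steap4, a metalloreductase induced by inflammation, had 6.13, 7.21 and 8.21 CPM, against 0.770, 0.495, 1.27 and 0.267 CPM (log2 fold change 3.37, SE 0.290, adjusted p = 5.19e-07). Lif (chromosome 11, 4257557 to 4272514), a cytokine that Müller glia make after photoreceptor injury, was above WT in every treated retina but uneven, with 48.8 and 93.9 CPM in retinas 1 and 2, 2.27 to 5.43 CPM in the other 6 and 0.401 to 0.496 CPM in WT retinas. Its log2 fold change of 5.51 (SE 1.34) was 3.16 without retinas 1 and 2. Bdnf, a neurotrophin, did not pass the test, with 8.74 to 13 CPM in rd10 TMB and 8.54 to 12.1 CPM in WT retinas (log2 fold change 0.14, SE 0.113). Between the diets 0 of 24 reactive gliosis genes passed the test by edgeR (2 at an unadjusted p under 0.05, 2 by DESeq2), and Bcl3 and Steap4 differed by -0.01 (SE 0.290) and -0.71 (SE 0.231).

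The promoter of Steap4 is shown for its match to TTCCNGGAA, the palindrome that STAT factors bind downstream of cytokines of the Lif family. The palindrome was found in 2 of the 21 reactive gliosis genes with a promoter in the table (9.52%, 21 of 25 genes matched) and in 1.15% of all promoters, over the same window. The sequence is that of chr5:7960222-7960471 on the plus strand, 5′ to 3′, with the match in capitals at 116 bases before the start.
Steap4: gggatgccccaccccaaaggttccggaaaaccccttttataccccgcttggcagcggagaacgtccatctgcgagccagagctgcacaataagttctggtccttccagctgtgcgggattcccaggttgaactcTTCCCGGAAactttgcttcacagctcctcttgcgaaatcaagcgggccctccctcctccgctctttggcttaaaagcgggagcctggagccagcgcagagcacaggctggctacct

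Microglial genes were higher. Of 15 genes of resting microglia 14 were higher and none was lower, 12 by more than 1.5-fold (median log2 fold change 1.63), and of 22 genes that mark microglia in degenerating tissue 18 were higher, 12 by more than 1.5-fold (median 1.13). Fcrls, a receptor of resident microglia, had 6.12, 8.48 and 10.7 CPM in rd10 TMB retinas, against 1.77, 0.606, 2.26 and 0.639 CPM in WT retinas (log2 fold change 2.68, SE 0.329, adjusted p = 1.03e-05). Itgam, the integrin of complement receptor 3, had 1.81, 2.07 and 2.92 CPM, against 0.609, 0.191, 0.347 and 0.238 CPM. Cst7 (chromosome 2, 150570415 to 150578944), a protease inhibitor of activated microglia, had 1.94, 2.21 and 5.57 CPM, against 0.215, 0.0957, 0.0661 and 0.163 CPM (log2 fold change 4.29, SE 0.40, adjusted p = 9.62e-07), with the highest value in rd10 TMB retina 3. The integrin Itgax and the lectin receptor Clec7a had 1.21 to 2.55 CPM and 2.78 to 5.53 CPM in rd10 TMB retinas, and 0 to 0.248 CPM and 0.179 to 0.413 CPM in WT retinas. All treated values of these 5 genes were above all WT values, at low levels in both groups. Of the 22, Lpl, Ctsl, Fabp5 and Igf1 did not pass the test, and without WT retina 3 the number that were higher was 21. Between the diets 0 of the 15 resting microglia genes passed by edgeR (1 at an unadjusted p under 0.05, 1 by DESeq2), and 1 of the 22 was lower in rd10 TMB retinas.

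Complement genes were higher in 13 of 16 cases and lower in 1, with a median log2 fold change of 2.56. C4b (chromosome 17, 34728380 to 34743882), of the classical pathway, had 212, 226 and 271 CPM in rd10 TMB retinas, against 16.9, 12.5, 36.3 and 5.17 CPM in WT retinas, and its log2 fold change of 3.72 (SE 0.379) was 4.35 without WT retina 3. C3, the central component, had 27.4, 34.2 and 49.5 CPM, against 4.03, 3.78, 4.38 and 3.42 CPM (log2 fold change 3.21, SE 0.172, adjusted p = 1.58e-08), and Serping1, the inhibitor of the first component, 74.1, 82.8 and 95.5 CPM, against 14.4, 7.37, 18.1 and 3.97 CPM. The treated values of the 3 genes were all far above WT. Vtn was the member that was lower, at 314 to 579 CPM in rd10 TMB and 919 to 1023 CPM in WT retinas (log2 fold change -1.20, SE 0.128, adjusted p = 3.04e-06), and it encodes vitronectin, an adhesion protein that photoreceptors express. C4b has a near-identical copy in the mouse genome, so its count is uncertain. Of 17 chemokine and cytokine genes 12 were higher, including Cxcl10, an attractant of T cells, at 0.408 to 4.11 CPM against 0.104 to 0.197 CPM in WT retinas (log2 fold change 3.50, SE 0.614, adjusted p = 2.56e-04), and Csf1, a growth factor of microglia, 3.10-fold higher (SE 0.202 on the log2 scale). The median log2 fold change of the 17 was 0.81.

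Most genes of antigen presentation and of the interferon response were higher in rd10 TMB retinas than in WT. Of 18 MHC class I genes 16 were higher and 1 lower (median log2 fold change 1.48), of 10 MHC class II genes 8 and 0 (2.16), and of 29 interferon-stimulated genes 29 and 0 (1.48), 20 of the last by more than 1.5-fold. Nlrc5, the transactivator of class I genes, had 6.94, 10.1 and 12.2 CPM in rd10 TMB retinas, against 0.949, 1.12, 2.49 and 0.698 CPM in WT retinas (log2 fold change 2.84, SE 0.302, adjusted p = 2.91e-06). Gbp2, a guanylate-binding protein, had 16.7, 18.8 and 21.7 CPM, against 3.67, 2.94, 5.37 and 2.72 CPM (log2 fold change 2.37, SE 0.163, adjusted p = 9.89e-08), and Oas1a, a sensor of double-stranded RNA, 1.04, 1.51 and 1.91 CPM, against 0.251, 0.207, 0.545 and 0.134 CPM (log2 fold change 2.41, SE 0.318, adjusted p = 2.05e-05). Treated and WT values did not overlap in these genes. H2-Aa and Cd74, the class II alpha chain and its invariant chain, had 2.43 to 6.13 CPM and 5.73 to 14.3 CPM in rd10 TMB and 0.193 to 1.42 CPM and 0.461 to 4.51 CPM in WT retinas, while Ciita, the transactivator of class II genes, did not pass the test, with 0.620 to 1.47 CPM in rd10 TMB and 0.876 to 1.5 CPM in WT retinas (log2 fold change -0.04, SE 0.226). Genes of the H2 and Oas families have close copies, and their counts are uncertain for that reason. The highest WT value of Cd74 and of Trim30a, an interferon-induced ligase, was that of WT retina 3, where the melanocyte gene Dct was also highest. Without it their log2 fold changes of 2.35 and 2.38 were 3.15 and 3.36, the number of interferon-stimulated genes that were higher was 28, and their median was 1.78. With males alone, whose WT retinas were 3 and 4, that number was 18 with a median of 1.1. The part of melanocytes or other carried-over cells in these values was not tested. Between the diets 0 of the 18, 10 and 29 genes of the 3 lists passed the test by edgeR (2, 4 and 1 at an unadjusted p under 0.05, and 0, 2 and 0 by DESeq2).

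The promoters of Gbp2, Oas1a and, chosen after its values were seen, B2m are shown for their matches to GAAANNGAAA, the core of the interferon-stimulated response element. It was found in 5 of the 16 class I genes with a promoter in the table (31.2%, 16 of 18 genes matched) and in 3.49% of all promoters, on either strand over the same window. B2m, the light chain of class I molecules, is at chr2:122147437-122147686 and Gbp2 at chr3:142620413-142620662, both on the plus strand, and Oas1a at chr5:120907526-120907775 on the minus strand. Capitals mark the matches, which lie 139 bases before the start in B2m, 59 in Gbp2 and 20 and 14 in Oas1a, where 2 of them overlap.
B2m: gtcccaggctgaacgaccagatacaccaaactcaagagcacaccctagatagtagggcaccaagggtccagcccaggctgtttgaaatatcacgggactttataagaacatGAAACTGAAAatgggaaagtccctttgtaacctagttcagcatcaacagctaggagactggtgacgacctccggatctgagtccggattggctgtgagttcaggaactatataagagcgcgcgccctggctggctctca
Gbp2: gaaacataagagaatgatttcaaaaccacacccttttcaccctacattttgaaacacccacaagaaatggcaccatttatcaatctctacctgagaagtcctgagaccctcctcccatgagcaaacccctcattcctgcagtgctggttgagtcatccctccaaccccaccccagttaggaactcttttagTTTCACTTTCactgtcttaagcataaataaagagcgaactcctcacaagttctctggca
Oas1a: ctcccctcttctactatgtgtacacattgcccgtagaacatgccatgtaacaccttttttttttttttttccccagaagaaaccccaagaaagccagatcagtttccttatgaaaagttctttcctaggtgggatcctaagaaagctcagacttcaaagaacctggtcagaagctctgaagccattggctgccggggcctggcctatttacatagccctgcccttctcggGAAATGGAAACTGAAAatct
Too few interferon-stimulated genes, 22 of 29, had a promoter in the table for a share to be given. The cAMP-response element TGACGTCA and the E-box CACGTG, also searched, were in 1.88% and 7.24% of all promoters, and in 1 and 5 of the 17 promoters of circadian clock genes.

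**Figure D4:**
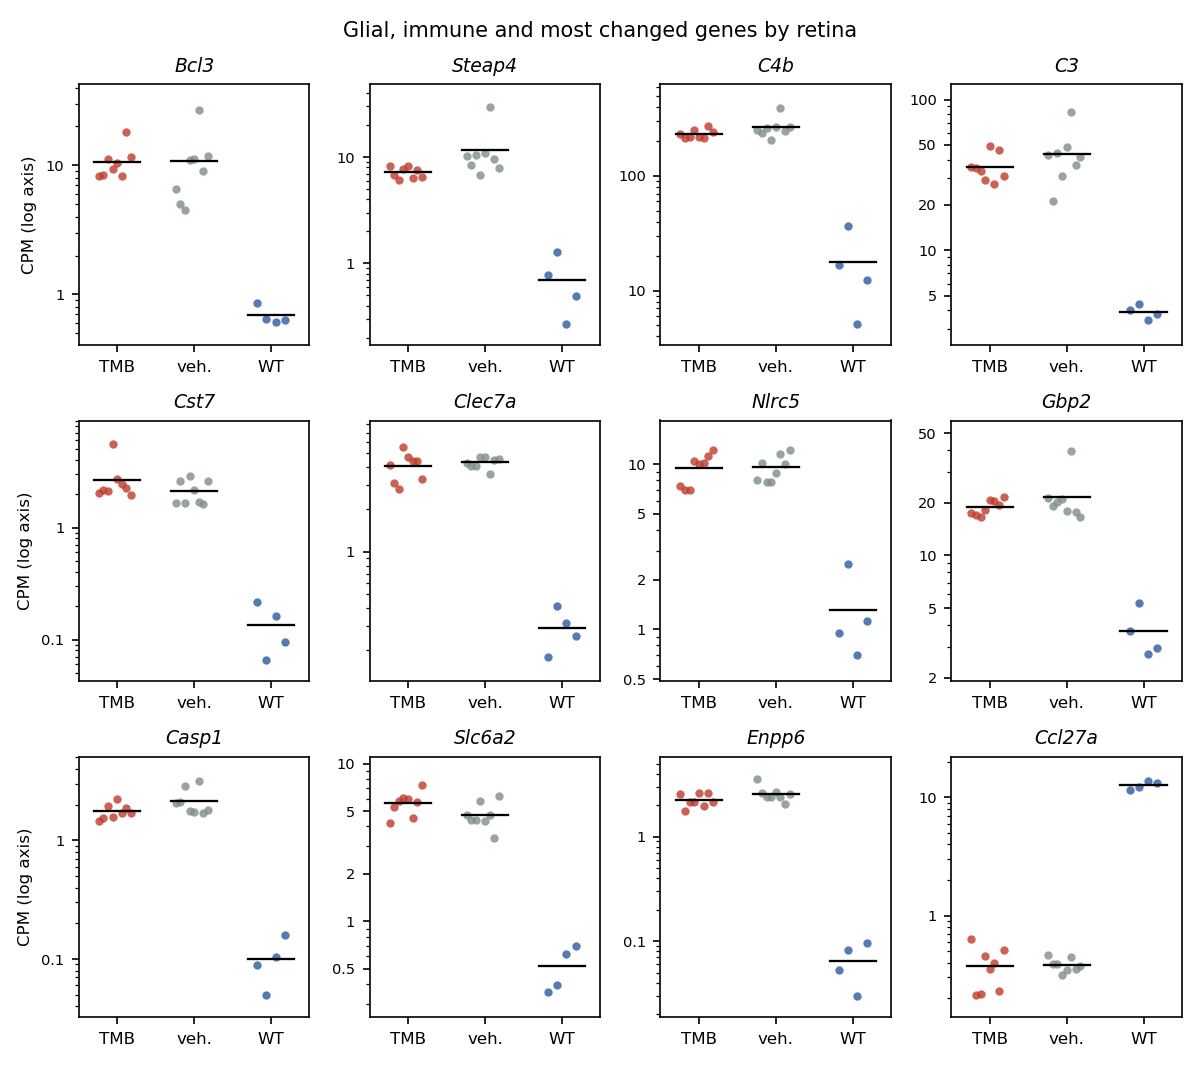
CPM on log axes of 12 glial, immune and strongly changed genes, with 1 point per retina and a black bar at the mean, for rd10 TMB (TMB, n = 8), rd10 vehicle (veh., n = 8) and WT (n = 4). The first 11 genes are above all WT values in every rd10 TMB retina, C4b at 212 to 271 CPM, and Ccl27a is below them, and rd10 TMB and rd10 vehicle values overlap in all 12.

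Lysosomal genes were higher in 20 of 28 cases and lower in 2 (13 and 1 without WT retina 2). Over all genes tested 27.2% were called higher and 24.9% lower, 52.2% in all, which also stands beside the next 2 lists. Ctss, a lysosomal protease of microglia, had 89.0, 96.8 and 120.0 CPM in rd10 TMB retinas, against 18.1, 15, 18.5 and 17.7 CPM in WT retinas, while Lamp1, a membrane protein of lysosomes in every cell, did not pass the test, with 240.4 to 275 CPM in rd10 TMB and 259 to 293 CPM in WT retinas (log2 fold change -0.10, SE 0.0527). With males alone the list counts were 8 higher and 1 lower, and with RD9 retinas alone 11 and 1. Cell death genes were higher in 20 of 32 cases and lower in 2 (12 and 1 with males alone). Casp1 (chromosome 9, 5298517 to 5307265), the inflammasome caspase, had 1.46, 1.70 and 2.24 CPM, against 0.0896, 0.160, 0.0496 and 0.104 CPM in WT retinas, and the tumour necrosis factor receptor Tnfrsf1a was 3.06-fold higher (adjusted p = 3.64e-06), whereas Parp1, a DNA repair enzyme, had a log2 fold change of -0.04 (SE 0.0532) that turned to 0.12 without TMM. Proliferation genes were seldom changed, with 2 of 17 higher and 3 lower (1 and 2 without WT retina 2 or 4, and 5 and 3 without TMB retina 5). The cyclin Ccna2 was among those lower, at 11.2 to 17.9 CPM in rd10 TMB and 24.3 to 30.7 CPM in WT retinas (log2 fold change -0.96, SE 0.119, adjusted p = 1.13e-05). All 3 metallothioneins tested, which buffer zinc and copper, were higher, with Mt1 at 144, 159 and 203 CPM, against 43.5, 40.4, 51.4 and 31.2 CPM in WT retinas (log2 fold change 2.0, SE 0.128, adjusted p = 5.57e-08).

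Of 21 genes for the targets of the drugs and for catecholamine handling, 9 were higher and 1 lower, beside 27.2% higher and 24.9% lower over all genes tested. Among the targets of tamsulosin, Adra1d was higher, at 6.63, 7.67 and 13.3 CPM in rd10 TMB retinas against 2.97, 3.27, 2.97 and 1.98 CPM in WT retinas (log2 fold change 1.59, SE 0.196, adjusted p = 1.06e-05), while Adra1a and Adra1b did not pass the test (log2 fold changes 0.27, SE 0.263, and 0.15, SE 0.128). Adrb1, the target of metoprolol, had 20.8 to 29.1 CPM in rd10 TMB and 20.8 to 27.0 CPM in WT retinas. Its log2 fold change was 0.07 (SE 0.10) over both sexes, -0.26 in females and 0.39 in males, and the difference between the sexes did not pass the test (adjusted p = 0.248). Of the dopamine receptors, Drd4, which photoreceptors express, was lower at 50.8, 61.5 and 80.9 CPM, against 130.2, 138, 126 and 134 CPM in WT retinas (log2 fold change -1.05, SE 0.109, adjusted p = 2.32e-06). Drd2, the main target of bromocriptine, and Drd1 were 1.63-fold and 1.34-fold higher (adjusted p = 1.67e-06 and 1.23e-05), and Drd5 had a log2 fold change of 0.41 (SE 0.175). Slc6a2 (chromosome 8, 92960079 to 93001667), the noradrenaline transporter, rose most, to 4.21, 5.77 and 7.34 CPM in rd10 TMB retinas, against 0.358, 0.702, 0.397 and 0.624 CPM in WT retinas (log2 fold change 3.42, SE 0.211, adjusted p = 4.19e-08). The treated values were above WT without overlap. Th, the rate-limiting enzyme of dopamine synthesis, did not pass the test, with 3.94 to 5.66 CPM in rd10 TMB and 4.0 to 4.55 CPM in WT retinas (log2 fold change 0.24, SE 0.110). Maoa, Slc18a2, Adra2c and Maob, which degrade, store or sense monoamines, were higher by 0.31 to 0.73 on the log2 scale. The calls of Maoa, Adra2c and Maob were lost with males alone and that of Slc18a2 with females alone. With RD9 retinas alone Maoa, Slc18a2 and Maob lost theirs. Adra2a, Adra2b, Ddc, Dbh and Slc6a3 did not pass the test. Between the diets, Drd4 was past the threshold (log2 fold change 0.46, SE 0.116, adjusted p = 0.0330) and the other 20 of the 21 were not, and 0 of 21 passed without vehicle retina 1.

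Of 55 nuclear genes of oxidative phosphorylation 35 were lower, their median log2 fold change being -0.20, and without TMM 12 were lower and 2 higher with a median of -0.04. Within females 9 were lower, within males 40, and with RD9 retinas alone 15. Of 27 glycolysis and lactate genes 12 were lower and 4 higher, a split that turned to 8 lower and 12 higher without TMM. It was 6 and 6 with RD9 retinas alone and 6 and 3 with males alone. Pfkfb2, a regulator of glycolysis abundant in photoreceptors, was lower under both scalings, with 93.0, 122 and 157 CPM in rd10 TMB retinas, against 326, 405, 262 and 357 CPM in WT retinas (log2 fold change -1.46, SE 0.130, adjusted p = 6.62e-07). Of 23 cholesterol genes 8 were lower and 4 higher (1 and 6 without TMM, 5 and 4 without WT retina 2, 5 and 3 without WT retina 4). Of 21 genes of the unfolded protein response 5 were lower and 4 higher (2 and 12 without TMM, 1 and 13 with RD9 retinas alone, 3 and 3 without TMB retinas 2, 3 and 4). Of 30 antioxidant genes 12 were higher and 1 lower, or 21 and 1 without WT retina 3, 22 and 1 without TMM and 4 and 1 with males alone. Prdx6, a peroxiredoxin, was 1.95-fold higher (SE 0.108 on the log2 scale). Circadian clock genes were split, 8 higher and 5 lower of 21 (11 and 3 without TMM, 5 and 6 with females alone). Finally, 5 of 7 splicing factor genes linked to retinitis pigmentosa were lower (2 without TMM or with males alone). Beside 52.2% of all genes tested, the called members in either direction were 35 of 55 for oxidative phosphorylation, 16 of 27 for glycolysis, 12 of 23 for cholesterol, 9 of 21 for the unfolded protein response, 13 of 30 for antioxidants, 13 of 21 for the clock and 5 of 7 for splicing.

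Mitochondrially encoded genes made up 2.53% to 3.34% of counts in rd10 TMB retinas (mean 2.74% ± 0.252, SD, n = 8). In WT retinas they made up 2.43% to 3.8% (2.91% ± 0.609, n = 4). The difference was -0.171 percentage points (exact permutation test, two-sided, p = 0.521), and it was 0.126 without WT retina 4. With these genes scaled to their own total, 5 of 11 tested were higher and 1 lower by edgeR. The cytochrome b gene mt-Cytb took 19.3% ± 0.758 of mitochondrial counts in rd10 TMB retinas and 21.7% ± 0.156 in WT retinas (log2 fold change -0.17, SE 0.0265, adjusted p = 7.57e-06). The ribosomal RNA mt-Rnr1 took 1.24% ± 0.112 and 0.991% ± 0.0638 (log2 fold change 0.32, adjusted p = 0.000189). Scaled to the nuclear counts instead, mt-Cytb alone passed, at a log2 fold change of -0.43.

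Vessel genes were higher in 13 of 18 cases and matrix genes in 12 of 21 (19 without WT retina 3, 5 with males or RD9 retinas alone), and none was lower. Among all genes tested 27.2% were called higher and 52.2% in either direction. The adhesion molecules Icam1 and Vcam1 had 4.07 to 6.55 CPM and 40.6 to 54.9 CPM in rd10 TMB retinas, and 0.431 to 1.49 CPM and 14.8 to 17.4 CPM in WT retinas (6.03-fold and 2.97-fold higher, SE 0.285 and 0.0922 on the log2 scale). The endothelial marker Pecam1 did not pass the test, with 12.5 to 15.9 CPM in rd10 TMB and 12.9 to 15.3 CPM in WT retinas (log2 fold change 0.03, SE 0.0761). Timp1, a protease inhibitor of reactive glia and vessels, was 6.58-fold higher, a log2 fold change of 2.72 that was 3.44 without WT retina 3.

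Some of the largest differences lay outside the lists. Among genes of at least 1 CPM with no overlap between the groups, Enpp6 (chromosome 8, 46986887 to 47096762), a phosphodiesterase of choline lipids known from newly formed oligodendrocytes, had 1.75, 2.15 and 2.63 CPM in rd10 TMB retinas, against 0.0537, 0.0957, 0.0826 and 0.0297 CPM in WT retinas (log2 fold change 5.07, SE 0.256, adjusted p = 1.16e-08). Cd300c2, a receptor of myeloid cells, had 1.39 to 3.38 CPM against 0.0537 to 0.282 CPM. The steepest decrease was that of Ccl27a (chromosome 4, 41769467 to 41774247), a chemokine, with 0.212, 0.374 and 0.639 CPM in rd10 TMB retinas, against 11.6, 13.2, 12.2 and 13.8 CPM in WT retinas (log2 fold change -5.07, SE 0.224, adjusted p = 3.05e-09). It had 0.312 to 0.466 CPM in rd10 vehicle retinas, and between the diets it differed by -0.04 (SE 0.229). Ccl27a has near-identical copies in the mouse genome, so its count is uncertain. Glb1l3 (chromosome 9, 26817953 to 26860890), a galactosidase-like gene, had 1.07, 1.93 and 3.13 CPM, against 18.2, 19.3, 18.1 and 23.6 CPM, and Knstrn, a spindle protein, 1.03, 1.39 and 1.77 CPM, against 7.42, 8.73, 6.41 and 7.87 CPM (log2 fold change -2.48, SE 0.148, adjusted p = 3.67e-08). The retinal noncoding RNA Rncr4 had 16.2, 19.8 and 31.1 CPM, against 94.4, 96.8, 93.1 and 107 CPM (log2 fold change -2.12, SE 0.151, adjusted p = 1.38e-07). These genes were picked for having no overlap, so the gap between the 8 treated and the 4 WT values was fixed by that choice. Cldn7, a tight junction protein, Dleu7 and Hdc, the enzyme of histamine synthesis, were 4.43-fold, 4.67-fold and 9.19-fold lower (SE 0.271, 0.216 and 0.293 on the log2 scale).

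The largest differences between the diets, among the genes past that test, were placed beside WT in the same way. Egr4, an activity-dependent factor, had 0.696 to 2.03 CPM in rd10 TMB, 0.284 to 0.773 CPM in rd10 vehicle and 0.877 to 1.25 CPM in WT retinas, so that the treated retinas spanned the WT values (log2 fold change against WT 0.48, SE 0.255, adjusted p = 0.131). Sst, the somatostatin gene of amacrine cells, had 1.69 to 3.0 CPM, 3.53 to 7.02 CPM and 2.82 to 3.49 CPM in the same order. Its rd10 TMB values lay within or below those of WT, and its rd10 vehicle values lay above. The difference of rd10 TMB from WT was past the test (adjusted p = 0.0287). That call was lost without WT retina 1 or 3, without TMB retinas 2, 3 and 4 and without TMM. It was also lost with females, males or RD9 retinas alone. Mapk15, a kinase of cilia, had 1.23 to 1.80 CPM, 0.380 to 1.34 CPM and 3.75 to 5.30 CPM, and Htr3a, a serotonin receptor of bipolar cells, 4.93 to 6.58 CPM, 6.63 to 11.7 CPM and 2.81 to 3.17 CPM. Both stayed apart from WT in every treated retina.

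Treated retinas differed among themselves in a few gene groups. Immediate early genes were higher in 15 of 27 cases and lower in 1, beside 27.2% higher and 24.9% lower over all genes. Their list level was 1.53 and 1.75 in rd10 TMB retinas 1 and 2 and 0.24 to 0.64 in the other 6. It was 0.17 to 1.84 in rd10 vehicle retinas and -0.12 to 0.13 in WT retinas. Arc, a gene of synaptic activity, had 44.1 and 74.6 CPM in these retinas, 2.66 to 3.47 CPM in the other 6 and 1.49 to 2.51 CPM in WT retinas, and the log2 fold changes of Arc, Egr3 and Egr2 (3.12, 4.12 and 5.84) became 0.66, 1.84 and 3.08 without them. Retinas 1 and 2 are the rd10 TMB females whose titles carry the prefix RD9. The vehicle level of 1.84 was that of vehicle retina 4, the RD9 female of its group, and the other 7 vehicle retinas lay at 0.17 to 0.42. The 3 RD9 females thus had the highest levels. Ttr, a thyroid hormone carrier made in the pigment epithelium, had 275, 453 and 475 CPM in retinas 2, 3 and 4, 94.9 to 135 CPM in the other treated retinas and 25.6 to 50.4 CPM in WT retinas. Lgsn, a lens protein, was at 327 CPM in rd10 TMB retina 4, at 0.488 to 16 CPM in the other treated retinas and at 1.56 to 9.38 CPM in WT retinas, and 5 crystallins summed to 40.4 to 3616 CPM in rd10 TMB and 47.3 to 207.3 CPM in WT retinas. Of 5 erythrocyte genes 0 passed by edgeR (also 0 by DESeq2, and 0 where p was not adjusted), with sums of 9.12 to 100.2 CPM in rd10 TMB and 8.66 to 29.4 CPM in WT retinas.

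**Figure D5:**
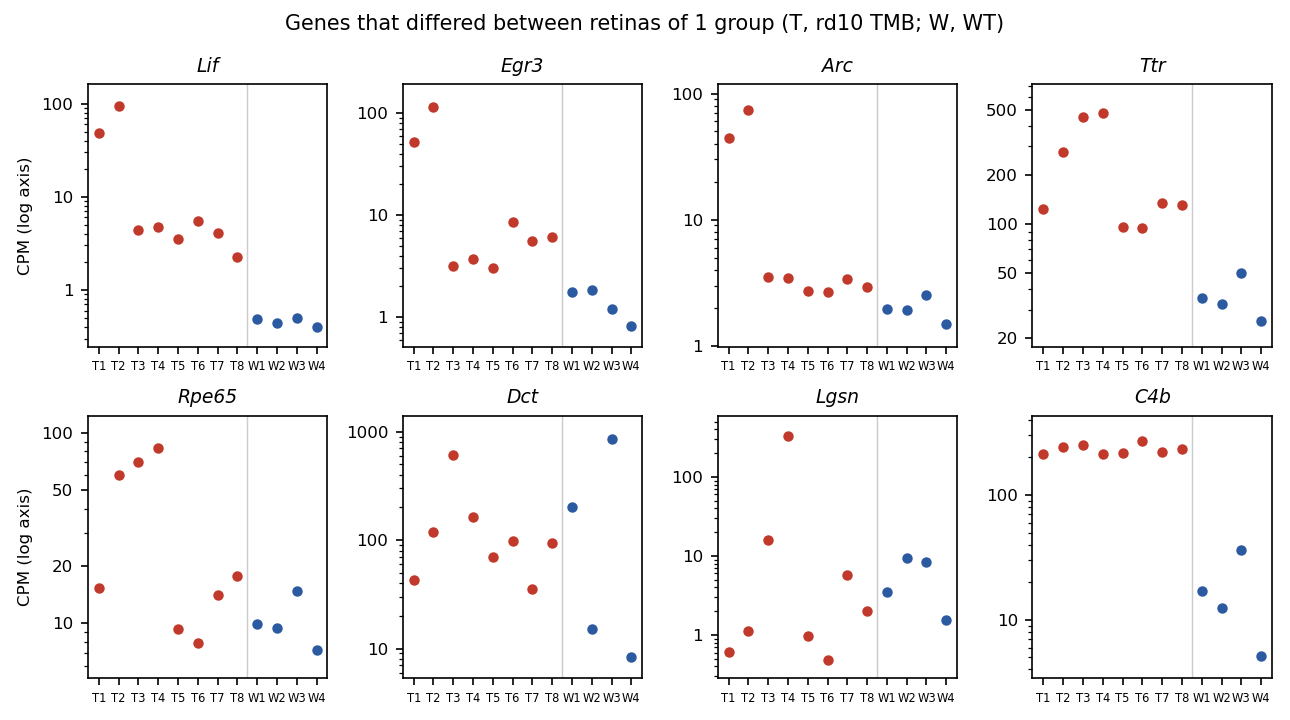
CPM on log axes of 8 genes in each rd10 TMB retina (T1 to T8) and each WT retina (W1 to W4). Lif, Egr3 and Arc are highest in T1 and T2, Ttr and Rpe65 in T2 to T4, Lgsn in T4 and Dct in W3 and T3, while C4b lies between 212 and 271 CPM in all treated retinas.

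The prefixes RD9 (3 rd10 TMB retinas) and RD10 (5), which the sources used here do not explain, separated 64 genes that were higher and 37 that were lower in RD9 retinas, 0.483% of 20899. The split was 186 higher and 183 lower with sex as a covariate and 53 and 66 without TMM. RD9 retinas alone differed from WT in 4118 genes as higher and 3083 as lower, and RD10 retinas alone in 5541 and 5302. All 22 rod genes were lower in both, with medians of -1.25 and -1.72. A test of whether the difference between rd10 TMB and WT retinas itself differed by sex, with 2 WT retinas of each sex, called no gene by edgeR (0 of 20848, 0.0%, 1998 at an unadjusted p under 0.05, 24 by DESeq2). The rod list was lower in all 22 genes within females and within males.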

How the data were processed

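Retinal mRNA was sequenced after poly(A) selection with an unstranded kit, 1 library per mouse. Per the labels and the study's methods, the authors checked and trimmed reads with FastQC and Trimmomatic, aligned them to GRCm38 with STAR, counted genes with HTSeq and tested them with DESeq2. The reads are single-end in the labels and paired-end in the methods. The deposited values are raw counts of reads per gene, not normalized, for 31346 nuclear genes and, apart, 27 mitochondrial genes. Unstranded counts do not separate a gene from an antisense partner.

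Groups came from the labels. Nuclear counts were filtered with filterByExpr, scaled by TMM and tested with edgeR 4.0.16 (glmQLFit and glmQLFTest, R 4.3.3), with Benjamini-Hochberg adjustment and a threshold of 0.05, and glmTreat tested for changes above 1.5-fold. CPM were scaled by TMM over the 24 libraries, the SE of a log2 fold change was taken from its F statistic, and list levels used log2(CPM + 0.1). Mitochondrial genes with a mean of at least 100 counts were scaled to their own total. DESeq2 1.42.0, RLE scaling, no TMM, no filter, sex as a covariate, 1 fit over all groups, each sex or prefix alone and the omission of single retinas were the alternatives. Replicate libraries differed by more than sampling noise (chi-square per gene 11.3 to 82.5 over 62 pairs). The mice are separate animals, so p-values measure the spread between mice, and depth was 59309641 to 86471014 counts per library. On simulated counts of 20567 genes, with 50 changed at each size, the test recovered 26%, 46%, 62% and 80% of genes changed 1.25-, 1.5-, 2- and 3-fold. There were 4 false calls. Far fewer genes changed there than were called in the data, so these shares do not give the recovery here.

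The 39 gene lists and the members were chosen with earlier results of these data known. Named genes were Pde6b, up to 3 called members per direction and list by largest change at a mean of at least 1 CPM, up to 2 members not past the test by highest mean, all drug target genes, the 10 largest changes in each direction without overlap (clone-named models left out), the 10 largest per direction between the diets, and the 10 most variable among rd10 TMB retinas. A few genes that this rule names are not reported here. Promoters came from the RefSeq table of GRCm38.p6 and gene positions from GENCODE M21, in which 99.1% of gene names were found. Motif shares were given where at least 80% of a list matched.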

Additional observations from a re-analysis of the deposited data

Results flagged for a closer look

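In 21 of 394 groups of values tested, the highest or lowest retina lay farther from its nearest neighbour than the limit for its group size. Chance gives about 1 in 20, so the number flagged was near that given by chance. Rd10 TMB retina 3 had the highest values of Clu (2493 CPM), Cst7 (5.57 CPM), Dct (613 CPM) and Mlana (55.9 CPM), and of the list levels of complement (2.14), lysosome (0.85) and cell proliferation (0.39), each on the log2 scale relative to WT. In rd10 TMB retina 4 the lens genes Crygb, Crygd and Lgsn reached 1728, 1216 and 327 CPM. Tcp11, a gene of sperm cells, had 22.5 CPM there, within the WT range of 21.6 to 23.5 CPM. It had at most 10.9 CPM in the other treated retinas. Retina 2 had the highest Egr2 (27.0 CPM) and Egr3 (114 CPM), retina 1 the highest Drd2 (53.4 CPM), retina 6 the highest Bcl3 (18.1 CPM) and retina 8 the highest mitochondrial share (3.34%). Among WT retinas, retina 3 was lowest in the splicing factor gene Prpf31 (64.3 CPM) and in the levels of the photoreceptor transcription factors (-0.16) and cone (-0.13) lists, retina 1 was highest in Bcl3 (0.860 CPM) and retina 4 in Tcp11 (23.5 CPM).

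The log2 fold change of Adrb1 had opposite signs in females and males. It had 20.8 to 23.5 CPM in female rd10 TMB and 27.0 CPM in both female WT retinas, and 27.4 to 29.1 CPM in male rd10 TMB and 20.8 to 22.1 CPM in male WT retinas. The difference between the effects, female minus male, was -0.63 on the log2 scale and did not pass the test over all genes (edgeR's quasi-likelihood test, adjusted p = 0.248).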

How the results depend on the processing

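Against WT, the calls without TMM were 8132 higher and 2740 lower, 74.8% higher beside 52.2% with TMM, and between the diets 656 and 1041, 38.7% higher beside 59.3%. The calls against WT were 7201 with RD9 retinas alone and 6477 with males alone, and those above 1.5-fold 917 and 726. Leaving out 1 retina gave 9389 to 11268 calls, 1298 (without WT retina 4) to 2123 (without WT retina 3) above 1.5-fold, 11646 to 13114 for rd10 vehicle against WT and 2 to 1676 between the diets. Between the diets DESeq2 called 1885 genes, and edgeR 680 with every gene that had a count. DESeq2 called 24 genes in the test by sex, sex as a covariate gave 369 between the prefixes (186 higher in RD9), and nuclear scaling gave 1 mitochondrial gene in place of 6. Leaving out 1 retina gave 4 to 8 mitochondrial genes and a difference in mitochondrial share of -0.33 to 0.126 percentage points. The causes were not tested.

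Of 3743 values of 156 named genes under the alternatives, 3622 stayed on the same side of the test and in the same direction, and 16 of 125 called genes lost their call in at least 1. The log2 fold change turned for Rgr with males alone (-0.022), Calr with RD10 retinas alone (-0.24), Parp1 without TMM (0.12), Adrb1 in females (-0.26), and Crygb, Crygd and Lgsn with RD9 retinas alone (-3.82, -3.99 and -2.67). No paired analysis was possible because each library came from a different mouse and the labels give no shared animal, litter or day. The limits are the 4 WT retinas, of which retina 3 stood apart, the absence of WT mice on the drug diet or under flashes, and bulk tissue. The data do not say whether a level belongs to cell number or to RNA per cell.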

Other observations

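Gpx3, an extracellular peroxidase, had 157 to 422 CPM in rd10 TMB and 6.24 to 203 CPM in WT retinas, with a log2 fold change of 1.55 (SE 0.607) and an adjusted p of 0.0439 (edgeR's quasi-likelihood test). It lost the call under 13 alternatives, at 1.45 without TMB retinas 2, 3 and 4, 1.32 with males alone, 1.54 with sex as a covariate, 1.27 without WT retina 2 and 1.46 to 1.58 without any 1 of TMB retinas 1, 2, 3, 4, 6 and 8, and was 2.17 without WT retina 3. Slc6a20a, an amino acid transporter of the pigment epithelium, had a log2 fold change of 2.81 (SE 0.476) that was 2.0 without rd10 TMB retinas 2, 3 and 4.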
